A study of Rattus norvegicus with 8 samples.

Results

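The cytoskeletal genes *Acta2*, *Tagln*, *Vim* and *Actb* were followed by RNA sequencing in rat cardiac fibroblasts, myofibroblasts and myofibroblasts exposed to microcurrent. They were selected by Ensembl ID, as ENSRNOG00000058039, ENSRNOG00000017628, ENSRNOG00000018087 and ENSRNOG00000034254 in that order, and are 4 of the 21867 genes in the table of estimated counts. All 4 genes passed the filter on low counts, which left 13849 genes for testing. The cells came from neonatal Wistar Kyoto rat hearts and formed 4 groups of 2 libraries. Cardiac fibroblasts (CFs) were the healthy starting cells, grown in standard medium with 10% FBS, so passaging, serum level and differentiation cannot be told apart between CF and MF. Myofibroblasts (MFs) were derived from CFs by repeated passaging in low-serum medium and received no current. The remaining groups were such myofibroblasts exposed to direct current at 1 µA/cm2 or 2 µA/cm2 for 72 h in that standard medium, and both are called treated cells here. The medium and culture time of the untreated MFs over those 72 h are not given in the sources used here, so an effect of the current and an effect of medium or time cannot be told apart. The libraries are described as biological replicates, but nothing says whether they came from separate animals or cultures, and the p-values cover only the spread between these libraries.

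Fibroblasts that become myofibroblasts build contractile stress fibres from actin. The genes of these fibres are switched on mainly by serum response factor (SRF) with its myocardin-related partners, which bind the CArG box, and by TGF-β signalling. *Acta2* encodes α-smooth muscle actin (αSma), the actin isoform by which myofibroblasts are usually recognised. *Tagln* encodes transgelin (Sm22), a protein that binds and bundles actin filaments. *Vim* encodes vimentin, the main intermediate filament protein of fibroblasts and other mesenchymal cells. *Actb* encodes β-actin, the cytoplasmic actin of nearly all cells, which served the study as a reference gene in qPCR. Smooth muscle cells and pericytes also express *Acta2* and *Tagln*, and most mesenchymal cells express *Vim*. In bulk RNA, a change in the number of cells of a type and a change of RNA per cell cannot be told apart.

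Upstream sequence was at hand for *Acta2* and *Vim*, the marker gene of myofibroblasts and the gene that passed the test after treatment. The 250 bases before each RefSeq start (build GRCr8, matched by symbol, 2 of 4 genes) are printed 5′ to 3′ on the strand of the gene. Capitals mark CArG-like matches, written CCNNNNNNGG with at least 5 of the 6 middle bases A or T, and the TATA letters TATAAA or TATATA. The *Acta2* window is chr1:241172504-241172753 on the minus strand and the *Vim* window is chr17:81577011-81577260 on the plus strand.
Acta2: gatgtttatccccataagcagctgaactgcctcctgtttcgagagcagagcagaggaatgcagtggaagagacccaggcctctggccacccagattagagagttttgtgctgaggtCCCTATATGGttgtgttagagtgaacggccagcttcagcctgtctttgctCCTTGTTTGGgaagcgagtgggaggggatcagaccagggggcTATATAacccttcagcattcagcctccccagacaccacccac
Vim: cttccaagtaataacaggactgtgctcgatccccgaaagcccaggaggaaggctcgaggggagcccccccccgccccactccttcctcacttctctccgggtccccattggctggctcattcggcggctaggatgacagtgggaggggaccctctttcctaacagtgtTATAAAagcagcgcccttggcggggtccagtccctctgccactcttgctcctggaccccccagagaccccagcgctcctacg
The *Acta2* window held 2 CArG-like matches, CCCTATATGG starting 134 bases and CCTTGTTTGG starting 84 bases before the start, and TATATA 42 bases before it. At least 2 such matches were present in 0.693% of 33469 windows of the same length and at least 1 in 8.08%. The *Vim* window held TATAAA 82 bases before the start, and its letters had no CArG-like match. TATAAA or TATATA was present on either strand in 16.1% of windows. The CArG-like form, which reads alike on both strands, was allowed 1 mismatch after the strict form, present in 1.5% of windows, had matched neither gene. None of the matches overlapped another.

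Among the 4 genes, *Vim* was the gene that passed the test after microcurrent treatment, at both current densities. *Acta2*, *Tagln* and *Actb* passed in none of the 7 comparisons of groups. The share of all tested genes that passed between treated cells and MFs was 15.0%, so 1 of 4 genes is near that background. A gene passed at a Benjamini-Hochberg adjusted p below 0.05 from edgeR's quasi-likelihood test over all 8 libraries. No member also reached the absolute log2 fold change of 1 that the study required. Against MF, 3.92% of tested genes did so at 1 µA, 4.62% at 2 µA and 6.76% in the mean of both current densities. Levels are given as CPM, which are counts scaled to a common library total, after TMM correction of that total. They are not corrected for gene length, so they are compared between libraries and not between genes.

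The libraries held from 26473085 to 37903701 estimated counts. Counting error is small at this depth, since the members had from 62428 to 200785 counts in each library, and the spread between replicates sets the precision. Each pair of replicates differed beyond sampling noise. The chi-square statistic averaged 16.3 a gene between the MF libraries, the closest pair, and 114 between the CF libraries, the least alike, and all 8 libraries were kept. With 2 libraries per group, all 4 groups shared 1 estimate of the spread. The common biological coefficient of variation was 18.4%. The value by gene, which edgeR draws toward the trend over genes, was 28.4% for *Acta2*, 21.1% for *Tagln*, 14.7% for *Vim* and 13.8% for *Actb*. The check of the cultures against markers of fibroblasts, cardiomyocytes, smooth muscle, endothelial and blood cells was not run, because no table used here pairs the Ensembl IDs with symbols.

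**Figure D1:**
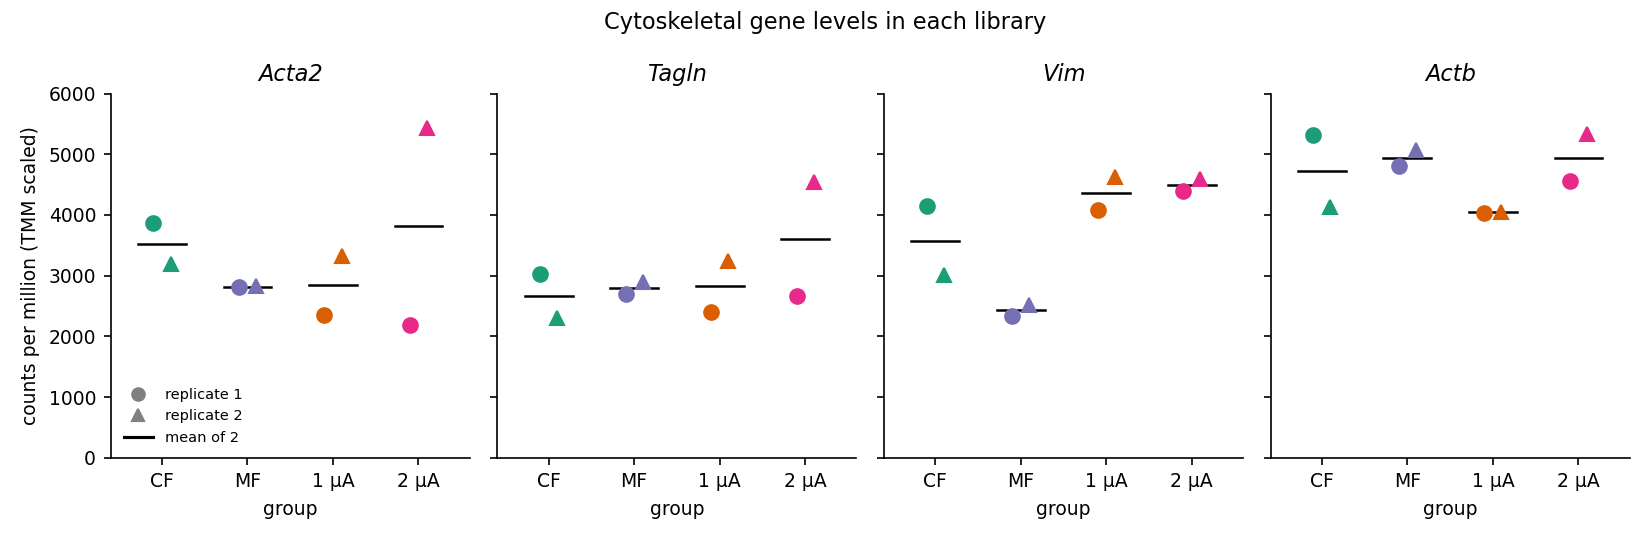
Levels of the 4 genes in each library, as TMM scaled CPM on a linear axis from 0, by group, with circles for replicate 1, triangles for replicate 2 and a bar for the mean of the 2 libraries. *Vim* lies between 4083 and 4631 in the 4 treated libraries and at 2334 and 2519 in MF, whereas *Acta2* and *Tagln* are widest apart between the 2 µA libraries.

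*Vim* was lowest in untreated myofibroblasts. It stood at 4143 and 3006 CPM in the CF libraries and at 2334 and 2519 CPM in the MF libraries. After treatment it stood at 4083 and 4631 CPM at 1 µA and at 4399 and 4590 CPM at 2 µA. Both MF libraries lay below every other library, so neither the CF and MF groups nor the treated and MF groups overlapped. All 4 treated libraries above both MF libraries was seen for 26.4% of tested genes, and both MF libraries below both CF libraries for 34.4%.

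In treated cells *Vim* rose 1.82-fold over MF (95% interval 1.39 to 2.40) in the mean of both current densities, where current and medium or culture time cannot be told apart. The log2 fold change was 0.87 ± 0.17 (SE, 4 against 2 libraries) with an adjusted p of 0.0200 in edgeR (quasi-likelihood test, Benjamini-Hochberg). At 1 µA the increase was 1.80-fold (adjusted p = 0.0449) and at 2 µA 1.85-fold (adjusted p = 0.0371, same test). These comparisons use the same MF libraries, and 2.61% of tested genes passed higher in both. The log2 difference of *Vim* between the current densities was 0.04, with a 95% interval from -0.39 to 0.48, and 1 gene (0.00722% of those tested) passed in that comparison.

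In the ranking of all tested genes by log2 fold change between treated cells and MFs, 6.95% of genes lay above *Vim*. Median log2 fold change over all genes in this comparison was close to 0, at 0.000415. The adjusted p of *Vim* in the mean of both densities rose to 0.198 without MF replicate 1, to 0.135 without MF replicate 2 and to 0.0750 without 1 µA replicate 2. Its log2 fold change stayed between 0.81 and 0.92 when any library was left out. At the single current densities, leaving out any of the 6 MF and treated libraries raised the adjusted p above 0.05, to between 0.0521 and 0.280 at 1 µA and between 0.0715 and 0.257 at 2 µA.

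Between MF and CF, *Vim* did not pass. Its level was 1.47-fold lower in MF (95% interval 1.09 to 2.00), with a log2 fold change of -0.56 ± 0.19 (SE, 2 against 2 libraries), an unadjusted p of 0.0196 and an adjusted p of 0.0784 from edgeR's test, where 18.5% of tested genes passed. The CF libraries were 1.38-fold apart for *Vim*. Leaving out CF replicate 2, the lower of the pair, gave a log2 fold change of -0.77 (adjusted p = 0.0150), and DESeq2 on all libraries gave -0.55 (adjusted p = 0.0191). Leaving out CF replicate 1 gave -0.29 (adjusted p = 0.276), and a fit of the CF and MF libraries alone gave -0.55 (adjusted p = 0.163). Treated cells stood above the CF mean, by a log2 fold change of 0.29 at 1 µA (95% interval -0.15 to 0.72) and of 0.33 at 2 µA (-0.11 to 0.77). Without CF replicate 1 these values were 0.55 and 0.60, and without CF replicate 2 they were 0.0711 and 0.12. Neither passed, with adjusted p of 0.375 and 0.329 in edgeR's test on all libraries, and the share of genes that passed against CF was 9.57% at 1 µA and 7.13% at 2 µA.

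**Figure D2:**
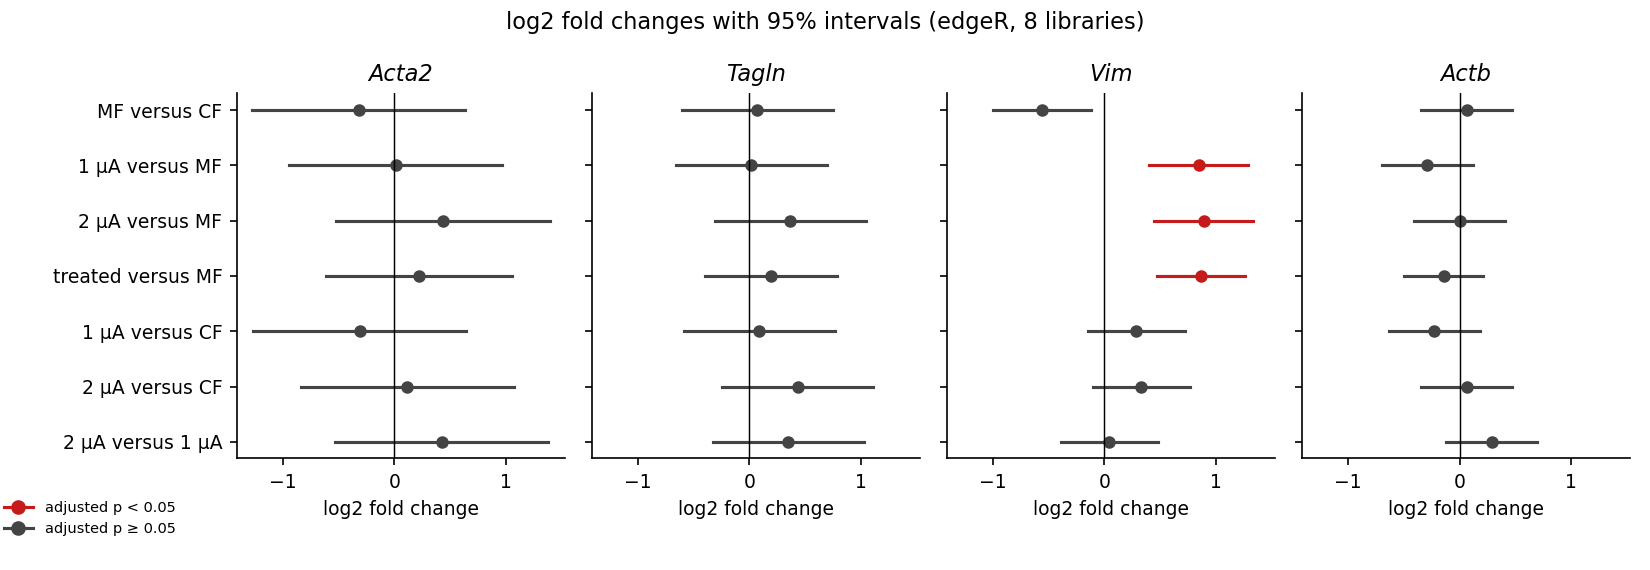
Log2 fold changes of the 4 genes in 7 comparisons of groups, with 95% intervals from the edgeR fit over 8 libraries and a vertical line at 0. Red marks an adjusted p below 0.05, which is reached by *Vim* in the 3 comparisons of treated cells with MF, at 0.84, 0.89 and 0.87, while the intervals of the other genes cross 0 throughout.

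*Acta2*, the marker gene of the myofibroblast, did not pass the test in any comparison and was not the higher one in MF. It stood at 3861 and 3185 CPM in CF and at 2806 and 2832 CPM in MF. Both MF libraries lay below both CF libraries, as was seen for 34.4% of tested genes. MF differed from CF by -0.32 ± 0.40 on the log2 scale (SE, 2 against 2 libraries), with a 95% interval from -1.28 to 0.64 and an adjusted p of 0.607 from edgeR's test. The interval runs from 2.43-fold lower to 1.55-fold higher in MF. Its width rests on the spread shared by all 4 groups, the treated libraries included. A fit of the CF and MF libraries alone gave -0.31 ± 0.17 (SE), with an adjusted p of 0.286 from edgeR's test. Without CF replicate 1 the value in the fit of all groups was -0.16. Markers of the myofibroblast state other than *Acta2* and *Tagln* were not analysed here.

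After treatment, *Acta2* stood at 2351 and 3329 CPM at 1 µA and at 2190 and 5439 CPM at 2 µA. The treated libraries lay on both sides of MF at each current density, with replicate 1 below and replicate 2 above both MF libraries. The log2 fold change against MF was 0.01 ± 0.40 at 1 µA (adjusted p = 0.992) and 0.44 ± 0.40 at 2 µA (adjusted p = 0.521, edgeR's test, SE). In the mean of both current densities it was 0.22, with a 95% interval from -0.61 to 1.06, or from 1.53-fold lower to 2.08-fold higher. Against CF, the values were -0.31 (95% interval -1.27 to 0.65) at 1 µA and 0.11 (-0.84 to 1.07) at 2 µA. The former was -0.0808 without 1 µA replicate 1, -0.58 without 1 µA replicate 2 and -0.15 without CF replicate 1.

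The sign of the *Acta2* values at 2 µA rested on single libraries. Without 2 µA replicate 2 the log2 fold change turned from 0.44 to -0.36 against MF, from 0.11 to -0.69 against CF and from 0.43 to -0.38 against 1 µA, and none passed the test. Without 2 µA replicate 1 the value against MF was 0.95, and without CF replicate 2 the value against CF was -0.0121. The treated mean was 3327 ± 1495 CPM (SD, n = 4) with all libraries and 2623 ± 617 CPM (SD, n = 3) without 2 µA replicate 2, against 2819 ± 18.7 CPM (SD, n = 2) in MF.

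*Tagln*, the gene of the filament-bundling transgelin, did not pass the test in any comparison. It stood at 3021 and 2307 CPM in CF, at 2697 and 2889 CPM in MF, at 2409 and 3247 CPM at 1 µA and at 2657 and 4539 CPM at 2 µA. The MF libraries lay between the CF libraries, and in each treated group replicate 1 lay below and replicate 2 above both MF libraries. MF differed from CF by 0.07 ± 0.29 on the log2 scale (SE, 2 against 2 libraries), with a 95% interval from -0.61 to 0.75 and an adjusted p of 0.887 from edgeR's test.

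Against MF, *Tagln* had a log2 fold change of 0.02 at 1 µA (95% interval -0.66 to 0.70) and 0.37 at 2 µA (-0.31 to 1.04). The mean of both was 0.19 ± 0.25 (SE), with an adjusted p of 0.630 from edgeR's test and an interval from 1.32-fold lower to 1.72-fold higher. Without 2 µA replicate 2 the value at 2 µA turned to -0.07 and the mean of both to -0.03. Against CF, *Tagln* had 0.09 at 1 µA and 0.43 at 2 µA, and the latter was -0.00297 without 2 µA replicate 2.

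The gap between the replicates of a group was wide for both stress fibre genes after treatment. Replicate 2 exceeded replicate 1 for *Acta2* 2.48-fold at 2 µA and 1.42-fold at 1 µA, whereas its MF libraries were 1.01-fold apart. A wider gap was seen in 3.75% of tested genes at 2 µA and in 13.3% at 1 µA. For *Tagln* the ratios were 1.71 at 2 µA and 1.35 at 1 µA, and 11.1% and 16.9% of genes had a wider gap. In CF the order was the other way, with replicate 2 at 0.825 of replicate 1 for *Acta2* and at 0.763 for *Tagln*. There 47.7% and 34.7% of genes had a wider gap. The CF libraries were 1.31-fold apart for *Tagln*, close to its gap at 1 µA. *Vim* had a small gap in the treated groups, 1.13-fold at 1 µA and 1.04-fold at 2 µA, and 42.8% and 83.0% of genes had a wider gap. The cause of these gaps was not tested.

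Over the 8 libraries, the vst values of *Acta2* and *Tagln* had a Pearson correlation of 0.826, given as a description. By this measure *Tagln* was in place 126 among the 13848 other genes for likeness to *Acta2*, and *Acta2* in place 58 for likeness to *Tagln*. Without 2 µA replicate 2, a choice made after seeing the data, the correlation was 0.510 over 7 libraries and *Tagln* was in place 2590 for likeness to *Acta2*. *Vim* had a correlation of 0.268 with *Acta2*, 0.448 with *Tagln* and -0.111 with *Actb*. The libraries share groups, so such values reflect the group means as well as the spread within groups. The genes nearest to *Vim* were ENSRNOG00000010170 at 0.997 and ENSRNOG00000013215 at 0.993, whose symbols are not paired in the tables used here. Their log2 fold changes between treated cells and MFs were 0.69 and 0.99 in edgeR's fit. Both genes were picked for likeness to *Vim* over these same libraries, so a rise like that of *Vim* was fixed by the choice. The nearest gene reached 0.973 for *Acta2*, 0.951 for *Tagln* and 0.935 for *Actb*, and no member was among the 3 nearest genes of another.

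**Figure D3:**
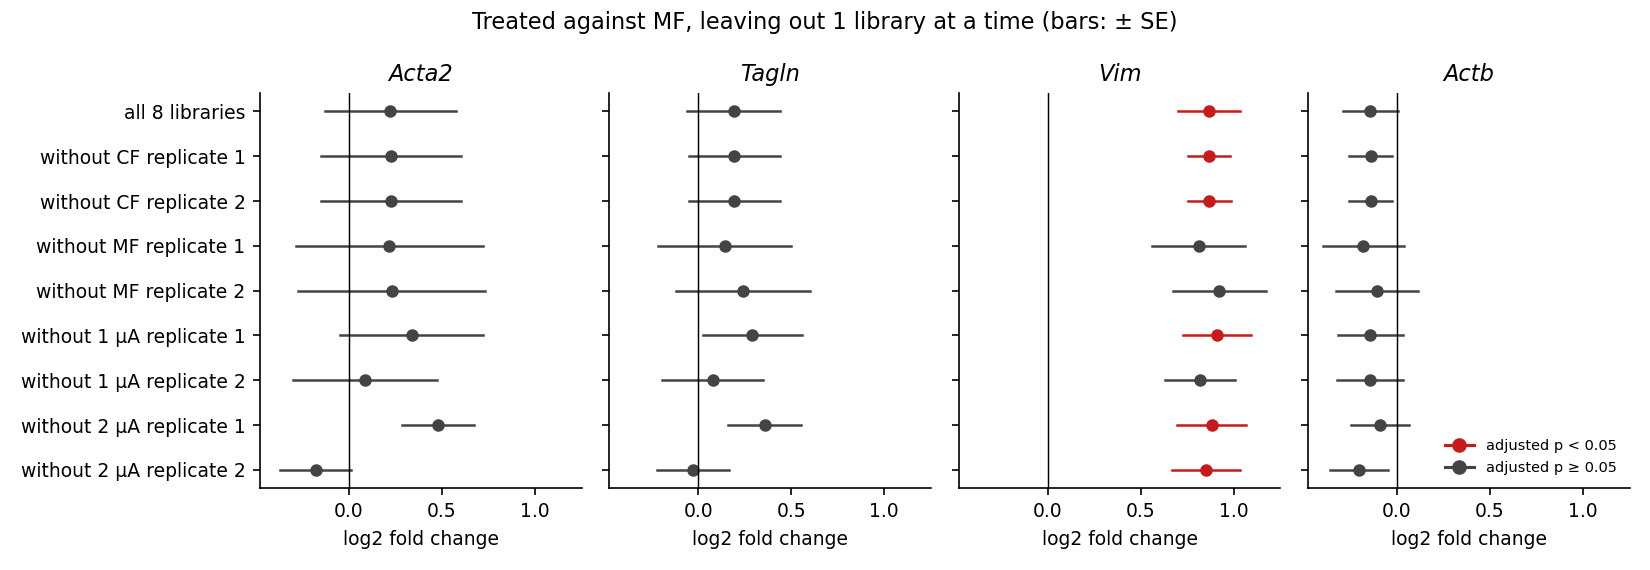
Log2 fold change between treated cells and MF for each gene, with all 8 libraries and with each library left out in turn, as points with bars for the SE. *Vim* stays between 0.81 and 0.92, with an adjusted p at or above 0.05 (grey) without MF replicate 1, MF replicate 2 or 1 µA replicate 2, and *Acta2* and *Tagln* fall to -0.18 and -0.03 without 2 µA replicate 2.

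*Actb*, the reference gene, had the narrowest intervals. It stood at 5323 and 4130 CPM in CF, at 4811 and 5065 CPM in MF, at 4036 and 4051 CPM at 1 µA and at 4551 and 5330 CPM at 2 µA. In these CPM the groups overlapped except at 1 µA, where both libraries lay below all others. That order depended on TMM scaling. As a share of the library total, CF replicate 2 (0.396%) lay below both 1 µA libraries (0.415% and 0.409%). How many of all tested genes had both 1 µA libraries below all others in CPM was not computed. The log2 fold change of 1 µA against MF was -0.29 ± 0.17 (SE, 2 against 2 libraries), with an adjusted p of 0.336 from edgeR's test, where 6.99% of genes passed. Its 95% interval ran from -0.70 to 0.12, or from 1.62-fold lower to 1.09-fold higher. At 2 µA against MF, where 7.92% of genes passed, the value was 0.000676 (95% interval -0.41 to 0.41), with a sign that turned under RLE scaling (-0.00491). MF against CF gave 0.06 (-0.34 to 0.47), and against CF the values were -0.23 (-0.63 to 0.18) at 1 µA and 0.06 (-0.34 to 0.47) at 2 µA. The value of 1 µA against CF was -0.0163 without CF replicate 1 and -0.40 without CF replicate 2. The value of 2 µA against 1 µA was 0.29 (95% interval -0.12 to 0.70). In the mean of both current densities against MF, it was -0.14 (-0.49 to 0.21).

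The ratio of each gene to *Actb* within a library does not depend on how libraries are scaled. These ratios of estimated counts are compared between libraries and say nothing of the level of one gene against another. For *Vim* the log2 ratio was -0.36 and -0.46 in CF and -1.04 and -1.01 in MF. At 1 µA it was 0.02 and 0.19 and at 2 µA -0.05 and -0.22. Treated libraries lay above both CF libraries, which lay above both MF libraries. The share of all tested genes separated like this relative to *Actb* was not computed, for *Vim* or for the other genes. In CPM, 26.4% of tested genes had all 4 treated libraries above both MF libraries. For 34.4%, both MF libraries were below both CF libraries. Relative to *Actb*, *Vim* was 2.02-fold higher in treated cells than in MF (p = 0.133 in a two-sided exact permutation test, the lowest that its 15 splits allow). It was 1.32-fold higher in treated cells than in CF (two-sided exact permutation test, p = 0.133). In CPM the treated and CF libraries overlapped for *Vim*, with CF replicate 1 at 4143 and 1 µA replicate 1 at 4083. *Actb* was lowest at 1 µA in CPM, so a ratio above CF is not by itself a higher level of *Vim*.

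For *Acta2* the log2 ratio to *Actb* was -0.46 and -0.37 in CF and -0.78 and -0.84 in MF, so that the groups did not overlap. The difference of -0.39 in MF had a p of 0.333 (two-sided exact permutation test over 6 splits), the smallest that 2 libraries against 2 allow. The treated libraries spanned -1.06 to 0.03 and overlapped both other groups. Their mean differed from MF by 0.29 (two-sided exact permutation test, p = 0.667), by 0.10 without 2 µA replicate 2 and by 0.46 without 2 µA replicate 1. For *Tagln* the 4 libraries of CF and MF lay within -0.84 and -0.81. The treated libraries lay above them, from -0.78 to -0.23, with a difference of 0.30 from MF (two-sided exact permutation test, p = 0.133). In the matrix of whole-number counts described further on, the treated and CF libraries overlapped in this ratio (difference 0.27, two-sided exact permutation test, p = 0.267, against 0.31 and p = 0.133 in the estimated counts). Replicate 1 of each treated group was the lower one, at -0.74 for 1 µA and -0.78 for 2 µA. In CPM these libraries held less *Tagln* than either MF library, at 2409 and 2657 against 2697 and 2889. Their *Actb* was also below MF, at 4036 and 4551 CPM against 4811 and 5065. A lower *Actb* gives a higher ratio, so a ratio above MF is not by itself a higher level of *Tagln*.

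**Figure D4:**
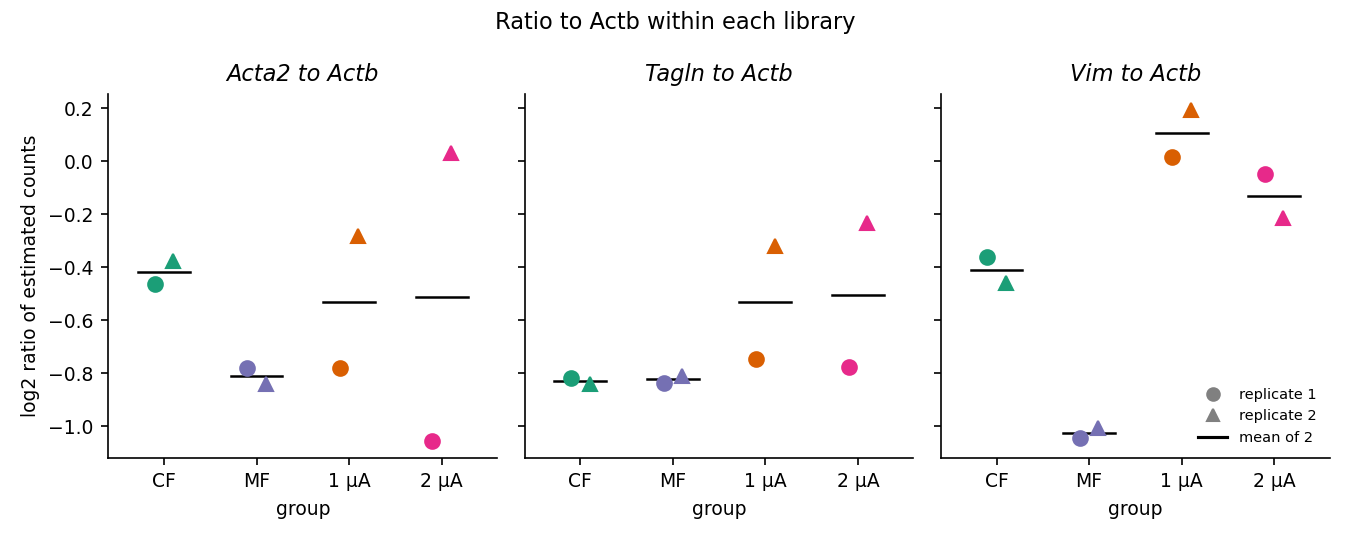
Log2 ratio of estimated counts of *Acta2*, *Tagln* and *Vim* to *Actb* within each library, by group, with circles for replicate 1, triangles for replicate 2 and a bar for the mean of 2. The *Vim* ratio is -1.04 and -1.01 in MF and between -0.22 and 0.19 in treated cells, and the *Tagln* ratio is nearly equal in the 4 libraries of CF and MF.

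A second table of whole-number counts gave another view of 3 of the 4 genes, as ENSRNOG00000058039 (*Acta2*) is not listed in it. Its counts were from 0.770 to 0.788 of the estimated counts for *Vim*, from 0.858 to 0.870 for *Tagln* and from 0.715 to 0.769 for *Actb* over the 8 libraries. The increase of *Vim* in treated cells over MF was 0.88 on the log2 scale there (adjusted p = 0.0191 from edgeR's test). The coding sequences of the actin genes are much alike, so reads may be split between *Acta2*, *Actb* and their paralogs, and the values of both genes are uncertain in this respect. The authors' scaling also holds a term for the mean length of a gene's transcripts in each library. Measured against the median gene of the library, this term moved by -0.421% to 0.385% for *Vim*, -1.42% to 1.32% for *Acta2*, -1.69% to 1.61% for *Actb* and -2.96% to 2.79% for *Tagln*.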

How the data were processed

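RNA from 8 libraries was sequenced as 150 bp paired reads. Per the methods of the study, the authors made estimated counts with salmon 1.4.0 on the rn6 transcriptome and summarized them by gene with tximeta 1.14.1. From these they deposited DESeq2 1.36.0 normalized values, a signal in which each count is divided by a factor specific to gene and library, and vst values (log2 scale, with the variance stabilised). The authors also deposited whole-number counts of 13341 genes in a matrix whose making is not given in the sources used here, although the labels describe fastp and STAR and their processing notes name DESeq2 1.28.1, a version other than that of the methods.

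Groups and replicate numbers came from the sample titles. Estimated counts were rounded and tested in edgeR 4.0.16 (limma 3.58.1, R 4.3.3). The settings were filterByExpr, TMM scaling, robust dispersions and a coefficient for each group, with 4 residual degrees of freedom for the quasi-likelihood F test and Benjamini-Hochberg adjustment over 13849 genes. The SE of a log2 fold change was its size over the square root of F, and intervals used the residual and prior degrees of freedom. "Treated" is the mean of both current densities. Ratios to *Actb* were tested by exact permutation in scipy 1.17.1. On simulated data for MF against CF, the fit called 3 of 50 genes changed 1.5-fold, 31 of 50 changed 2-fold and 47 of 49 changed 4-fold. It called 5 of 13476 unchanged genes. The simulated spread followed the trend over genes, which was 17.2% at *Acta2* against 28.4% in edgeR's value by gene. A gene that did not pass may therefore still have changed. Figures used Python 3.11.15 and matplotlib 3.10.9.

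The members and lists were chosen with earlier results of these data known. Symbols of the 4 members came with their definition. Named genes were the members, up to 4 genes per cytoskeleton list, a few regulators and the 3 genes most like each member by Pearson correlation. The lists, the regulators and the cell type markers were not run, since the RefSeq gene table (GRCr8) matched 0 Ensembl IDs. Of the like genes 2 IDs are printed. Promoter windows of *Tagln* and *Actb* were not analysed here. Alternatives were DESeq2 1.42.0, RLE or upper quartile factors or none, other filters on low counts, the matrix of counts, length offsets, only the groups compared, a replicate block, a stricter threshold and each library left out. One alternative, the likeness without 2 µA replicate 2, was added after seeing the data.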

Additional observations from a re-analysis of the deposited data

How the results depend on the processing

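With each library left out in turn, the log2 fold changes of *Vim* against MF ranged from 0.75 to 0.93 at 1 µA, 0.83 to 0.95 at 2 µA and 0.81 to 0.92 in the mean of both. Those of MF against CF ranged from -0.77 (without CF replicate 2, which passed) to -0.29 (without CF replicate 1, which did not), those of 1 µA against CF from 0.0711 to 0.550, those of 2 µA against CF from 0.122 to 0.601, and those of 2 µA against 1 µA from -0.0433 to 0.148. For *Acta2* the ranges were -0.455 to -0.161 for MF against CF, -0.581 to -0.0808 for 1 µA against CF, -0.266 to 0.240 for 1 µA against MF, -0.365 to 0.948 for 2 µA against MF, -0.177 to 0.479 for treated cells against MF, -0.685 to 0.627 for 2 µA against CF and -0.375 to 0.937 for 2 µA against 1 µA. For *Tagln* they were -0.115 to 0.291 for MF against CF, -0.217 to 0.218 for 1 µA against MF, -0.0720 to 0.700 for 2 µA against MF, -0.0272 to 0.359 for treated cells against MF, -0.143 to 0.309 for 1 µA against CF, -0.00297 to 0.769 for 2 µA against CF and -0.0896 to 0.682 for 2 µA against 1 µA. For *Actb* they were -0.109 to 0.272 for MF against CF, -0.398 to -0.0163 for 1 µA against CF, -0.118 to 0.11 for 2 µA against MF and -0.103 to 0.279 for 2 µA against CF. A group left with 1 library is assumed to vary like the others. The log2 ratio to *Actb* ranged from -0.287 to 0.0745 for *Acta2* between treated cells and CF, from 0.102 to 0.464 for *Acta2* between treated cells and MF and from -0.00645 to 0.0187 for *Tagln* between MF and CF.

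Among the other alternatives, *Vim* passed against MF in every fit at 0.05 except at the single current densities under the replicate block. At 0.01 it passed at neither current density (0.84 and 0.89) nor in the mean of both (0.87). DESeq2 called *Vim* between MF and CF (-0.55). The value of *Actb* at 2 µA against MF turned to -0.00491 with DESeq2 and with RLE factors and to -0.00311 with length offsets. The log2 ratio of *Tagln* to *Actb* between MF and CF turned to -0.0467 in the matrix and to -0.0126 in the authors' normalized values. By Spearman correlation *Tagln* was in place 557 for likeness to *Acta2* and *Acta2* in place 133 for likeness to *Tagln*. *Acta2* is not listed in the matrix, so it has no value there. *Acta2*, *Tagln* and *Actb* passed in none of the fits, with a lowest adjusted p of 0.102. What caused these shifts was not tested.

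Differences between replicates correlated by -0.172 to 0.242 across pairs of groups, with the highest value between the treated groups. Whether equal numbers mark a shared source is not given in the sources used here, and they were not used as pairs. With that number as a replicate block, *Vim* against MF did not pass at 1 µA (0.84, adjusted p = 0.0734) or 2 µA (0.89, adjusted p = 0.0628) and passed in the mean of both (0.87, adjusted p = 0.0374), and *Acta2* at 1 µA turned to -0.0216. With 2 libraries a group, precision is limited by the spread between replicates and not by depth.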
